A study of Mus musculus with 24 samples.

Results

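Nitric oxide and the natriuretic peptides both act by raising cyclic GMP inside cells. Nitric oxide is made by the nitric oxide synthases and binds soluble guanylyl cyclase, an enzyme built of an alpha and a beta subunit. Natriuretic peptides bind receptors that carry a guanylyl cyclase of their own. Cyclic GMP activates protein kinase G, which relaxes smooth muscle, and phosphodiesterases break it down. In the kidney the pathway is known for widening vessels, setting renin release and promoting sodium excretion. The 10 genes described here are the 3 nitric oxide synthases (*Nos1*, *Nos2*, *Nos3*), the soluble guanylyl cyclase subunits *Gucy1a1* and *Gucy1b1*, the phosphodiesterase gene *Pde5a*, the natriuretic peptide receptors *Npr1*, *Npr2* and *Npr3*, and the protein kinase G gene *Prkg1*. They were chosen by symbol from 18782 genes that had a probe set annotated to them alone. Each of the 10 was represented by 1 probe set.

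Kidney tissue was taken at 12 weeks of age from male and female mice of the Schlager strains BPH/2J (hypertensive) and BPN/3J (normotensive), with 6 mice in each of the 4 groups. The mice received no treatment, and the tissue was snap frozen after collection in the inactive period. Kidney RNA was hybridised to Mouse Gene 1.0 ST arrays (Affymetrix), 1 per mouse, and the deposited values are log2 expression after robust multiarray analysis (RMA). Each strain is 1 inbred line, so hypertension and any other fixed difference between the lines cannot be told apart here, and blood pressure was not taken in the array animals. The strains were compared within each sex, and the sexes within each strain, by limma on 12 arrays. All 28853 probe sets were tested together, and a difference was called where the p adjusted by the Benjamini-Hochberg method was under 0.05. Strain calls that also passed the Bonferroni threshold of the study's methods are named. A difference is given on the log2 scale with its standard error (SE). A fold is that difference on the linear scale.

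Markers of kidney were bright on every array, with a mean of 7 genes between 11.90 and 12.24. Arrays differed in how much RNA of other organs they held. The mean of 17 hepatocyte genes ran from 6.79 to 11.89 and the mean of 8 adrenal cortex genes from 5.76 to 10.01, with the highest hepatocyte means on arrays 2 and 5 of the BPN/3J females. In bulk tissue, more cells of a type and more RNA per cell cannot be told apart.

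*Gucy1b1* and *Gucy1a1* are neighbours. On mouse chromosome 3 (GRCm38.p6), *Gucy1b1* covers 82032004 to 82074711 and *Gucy1a1* 82092427 to 82145946, both on the minus strand. The 17715 bases between them hold 0 annotated genes. *Pde5a* (122729158 to 122859374) and *Npr1* (90450591 to 90465928) lie on the same chromosome. *Nos1* and *Nos3* are on chromosome 5, *Npr2* on chromosome 4, *Nos2* on chromosome 11, *Npr3* on chromosome 15 and *Prkg1*, which spans 30564487 to 31765268, on chromosome 19.

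The promoters of the cyclase subunits and of *Prkg1* are shown because these 3 genes were higher together in BPH/2J kidney and in females, and that of *Pde5a* because it was lower in BPH/2J kidney of both sexes. RefSeq promoter windows of 300 bases, from 250 before the start site to 50 from it on, were held for 8 of the 10 genes and not for *Nos2* and *Nos3*. Where a gene had 2 windows (*Gucy1a1* and *Prkg1*), the one farthest upstream is given. They are written 5′ to 3′ on the strand of the gene, and capitals mark GGGCGG (the core of the GC box that Sp factors bind) or CCAAT (the CCAAT box), each searched on both strands. The windows lie at chr3:82145601-82145900, chr3:82074662-82074961, chr19:31764984-31765283 (all 3 on the minus strand) and chr3:122728908-122729207 (plus strand), in the order printed.
Gucy1a1: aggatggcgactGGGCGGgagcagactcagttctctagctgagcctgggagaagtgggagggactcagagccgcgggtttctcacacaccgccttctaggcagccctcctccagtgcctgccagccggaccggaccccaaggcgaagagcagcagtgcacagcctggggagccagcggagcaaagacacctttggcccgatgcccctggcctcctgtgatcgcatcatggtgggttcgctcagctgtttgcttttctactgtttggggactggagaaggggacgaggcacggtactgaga
Gucy1b1: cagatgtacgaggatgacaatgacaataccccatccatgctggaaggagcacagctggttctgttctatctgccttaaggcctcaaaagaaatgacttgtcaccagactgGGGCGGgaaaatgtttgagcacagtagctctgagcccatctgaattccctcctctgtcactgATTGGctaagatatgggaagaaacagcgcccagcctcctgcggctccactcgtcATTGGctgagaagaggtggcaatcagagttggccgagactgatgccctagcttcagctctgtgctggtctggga
Prkg1: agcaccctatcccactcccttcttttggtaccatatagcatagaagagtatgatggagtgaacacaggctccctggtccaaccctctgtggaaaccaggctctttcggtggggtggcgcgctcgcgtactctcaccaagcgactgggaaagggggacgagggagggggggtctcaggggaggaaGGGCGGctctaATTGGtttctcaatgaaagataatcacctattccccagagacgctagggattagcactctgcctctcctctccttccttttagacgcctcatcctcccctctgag
Pde5a: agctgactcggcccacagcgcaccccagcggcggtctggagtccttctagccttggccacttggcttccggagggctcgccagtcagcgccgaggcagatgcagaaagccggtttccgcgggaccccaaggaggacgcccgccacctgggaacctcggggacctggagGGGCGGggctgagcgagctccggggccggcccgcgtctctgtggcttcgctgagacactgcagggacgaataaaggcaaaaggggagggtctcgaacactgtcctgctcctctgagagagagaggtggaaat
All 4 windows held 1 copy of GGGCGG, which 35.7% of all 32851 windows hold. CCAAT was found 2 times in the *Gucy1b1* window and 1 time in that of *Prkg1*, and 37.4% of all windows hold it. The windows differed in base composition. The *Pde5a* window was 66.3% G or C with 23 CG dinucleotides, the *Gucy1b1* window 52.3% with 6, and the median of all windows was 52.7% with 7. No match to TATAAA (13.6% of all windows), to TGACGTCA, the cyclic AMP response element (1.79%), or to the CArG box of serum response factor (1.63%) was found in any of the 8 windows.

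Most of the 10 genes differed between the strains, and in both sexes most of these were higher in BPH/2J. In males, 8 of the 10 were called, where 15.2% of all probe sets were. Of these, 7 were higher in BPH/2J (7.48% of all probe sets) and 1 was lower (7.70%). In females, 7 were called, against 14.5% of all probe sets, with 5 higher (8.01%) and 2 lower (6.48%). The same direction was called in both sexes for 6 genes, where the share of all probe sets was 8.09%. *Nos1*, *Nos3*, *Gucy1a1*, *Gucy1b1* and *Prkg1* were higher and *Pde5a* was lower. Without arrays 2 and 5 of the BPN/3J females, 6 genes were called in females, the call of *Nos1* being lost. The differences were small. Their median absolute size over the 10 genes was 0.27 in males and 0.26 in females, beside 0.079 and 0.078 over all probe sets. The 2 strains did not overlap for 5 of the 10 genes in males (9.65% of all probe sets) and for 5 in females (9.34%).

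**Figure D1:**
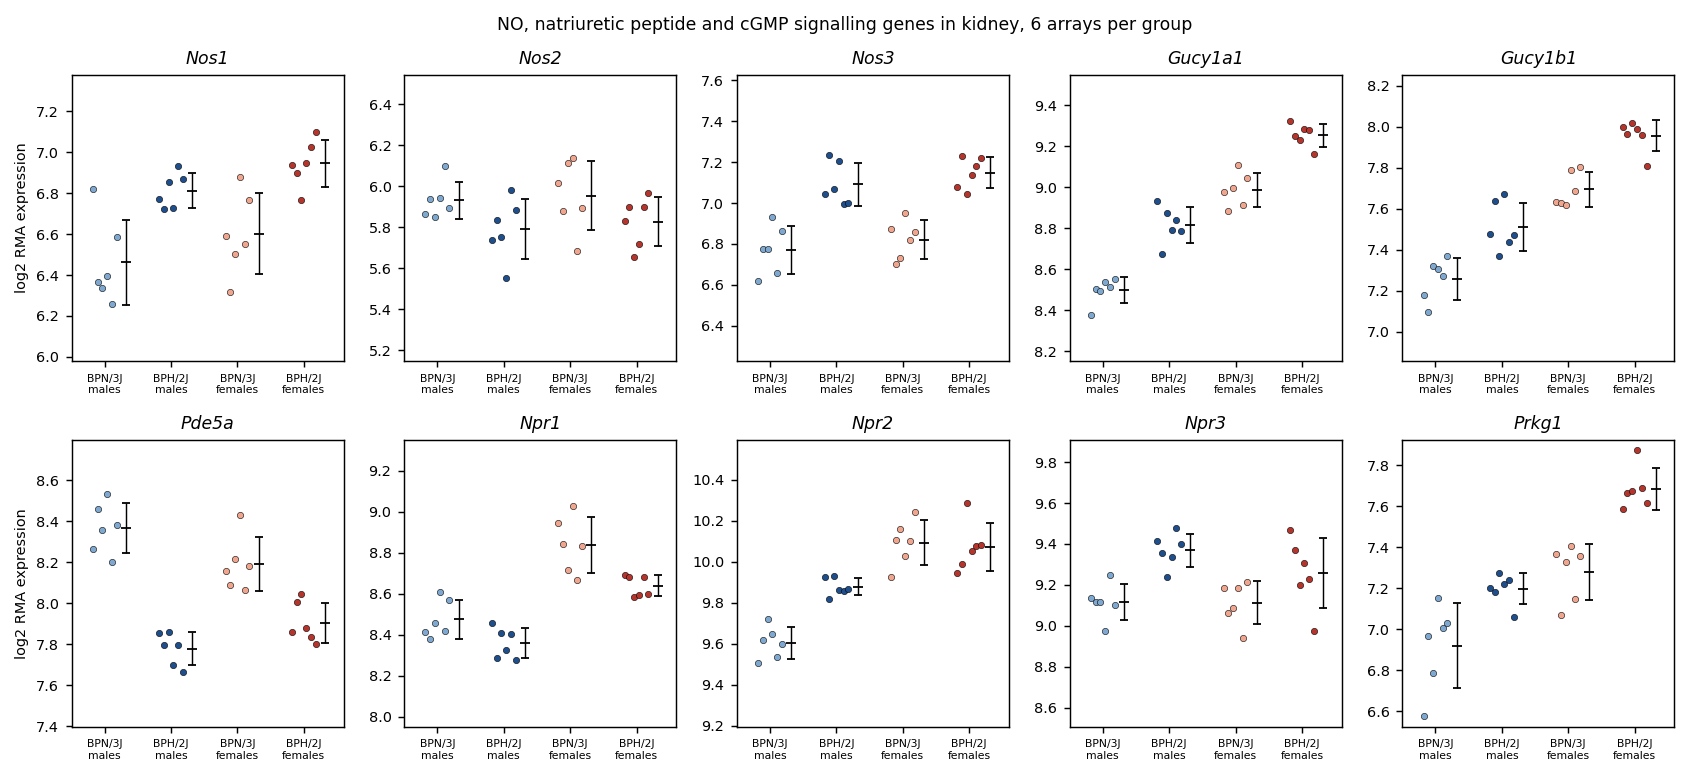
Log2 RMA expression of the 10 genes on each array, in 4 groups of 6 mice. Each point is a mouse and the bar beside the points is the mean ± SD; each panel has its own axis, with a shared span of values. *Gucy1a1*, *Gucy1b1* and *Prkg1* step up from BPN/3J males to BPH/2J females, and *Pde5a* is lower in both BPH/2J groups.

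Among the nitric oxide synthases, *Nos1* and *Nos3* were higher in BPH/2J kidney and *Nos2* was not called. *Nos3*, the endothelial enzyme, was 6.62 to 6.93 (median 6.78) in BPN/3J males and 6.996 to 7.235 (median 7.06) in BPH/2J males. In females it was 6.70 to 6.95 (median 6.84) in BPN/3J and 7.04 to 7.23 (median 7.16) in BPH/2J. Every BPH/2J array was above every BPN/3J array, in both sexes. The difference was 0.32 in males (SE 0.0629, adjusted p = 0.00306) and 0.33 in females (SE 0.0507, adjusted p = 0.00062), a 1.25-fold higher level in each. The test of the difference between these strain effects gave 0.0055 (95% interval -0.16 to 0.17, adjusted p = 0.991).

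*Nos1*, the neuronal enzyme, which is known in kidney from the macula densa, was 6.26 to 6.82 (median 6.38) in BPN/3J males and 6.72 to 6.93 (median 6.81) in BPH/2J males. It was 6.32 to 6.88 (median 6.57) in BPN/3J females and 6.76 to 7.10 (median 6.94) in BPH/2J females. The groups overlapped in both sexes, with 1 BPN/3J array in the BPH/2J range in males and 2 in females. The difference was 0.35 in males (SE 0.0851, adjusted p = 0.0124) and 0.34 in females (SE 0.087, adjusted p = 0.0173). Without arrays 2 and 5 of the BPN/3J females, the difference in females was 0.26 with an adjusted p of 0.0719. In males, the methods' t-test gave *Nos1* an adjusted p of 0.0523.

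*Nos2*, the inducible enzyme, had a mean of 5.93 ± 0.091 (SD, n = 6) in BPN/3J males and 5.79 ± 0.15 in BPH/2J males. The means in females were 5.95 ± 0.17 in BPN/3J and 5.83 ± 0.12 in BPH/2J. All 4 groups overlapped, and the strain differences were -0.14 (95% interval -0.29 to 0.0064) in males and -0.13 (-0.30 to 0.046) in females. The level of *Nos2* was low, with a mean over all arrays of 5.88, at percentile 34.2 of all probe sets.

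Both subunits of soluble guanylyl cyclase were higher in BPH/2J than in BPN/3J kidney, and higher in females than in males. *Gucy1a1* (alpha 1) was 8.38 to 8.55 (median 8.51) in BPN/3J males, 8.68 to 8.93 (median 8.82) in BPH/2J males, 8.89 to 9.11 (median 8.99) in BPN/3J females and 9.16 to 9.32 (median 9.26) in BPH/2J females. The strains did not overlap within a sex, nor the sexes within a strain. Between strains the difference was 0.32 in males (SE 0.0479, 1.25-fold, adjusted p = 0.000375) and 0.27 in females (SE 0.0448, 1.20-fold, adjusted p = 0.0011). *Gucy1b1* (beta 1) showed the same order of groups. It was 7.09 to 7.37 (median 7.29) in BPN/3J males, 7.37 to 7.67 (median 7.47) in BPH/2J males, 7.62 to 7.80 (median 7.66) in BPN/3J females and 7.81 to 8.02 (median 7.98) in BPH/2J females. Its strain difference was 0.25 in males (SE 0.0628, adjusted p = 0.0138) and 0.26 in females (SE 0.0484, adjusted p = 0.00227). The highest BPN/3J male and the lowest BPH/2J male were both at 7.37, as were BPN/3J and BPH/2J females at 7.80 and 7.81, so that these groups touched without overlapping.

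*Prkg1* encodes the cGMP-dependent protein kinase of smooth muscle. It was 6.58 to 7.15 (median 6.99) in BPN/3J males and 7.06 to 7.28 (median 7.21) in BPH/2J males. These overlapped between 7.06 and 7.15, and the spread was wider in BPN/3J males (SD 0.21) than in BPH/2J males (SD 0.075). In females it was 7.07 to 7.40 (median 7.34) in BPN/3J and 7.59 to 7.87 (median 7.67) in BPH/2J, and these did not overlap. The difference was 0.28 in males (SE 0.0834, adjusted p = 0.0395) and 0.41 in females (SE 0.0667, 1.32-fold, adjusted p = 0.000964). The call in males was lost when any 1 of 7 arrays was left out, with an adjusted p of up to 0.0824 (without BPN/3J males replicate 3).

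*Pde5a* was the only one of the 10 genes called lower in both sexes. Its product breaks down cyclic GMP and is the target of sildenafil. It was 8.20 to 8.53 (median 8.37) in BPN/3J males and 7.66 to 7.86 (median 7.80) in BPH/2J males, a difference of -0.59 (SE 0.0593, 1.504-fold lower, adjusted p = 1.11e-05). This was the only strain difference of the 10 genes that passed the Bonferroni threshold (adjusted p = 0.00534), which 2.56% of all probe sets passed in males and 2.36% in females. In females *Pde5a* was 8.06 to 8.43 (median 8.17) in BPN/3J and 7.80 to 8.04 (median 7.87) in BPH/2J, a difference of -0.29 (SE 0.0647, 1.22-fold lower, adjusted p = 0.00875). No BPH/2J array reached the lowest BPN/3J array of its sex. The strain effect was smaller in females by 0.30 (95% interval 0.12 to 0.49), but this interaction was not called (adjusted p = 0.0939).

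The 3 natriuretic peptide receptors did not share a direction. *Npr1*, the receptor for atrial and B-type natriuretic peptide, was 8.67 to 9.03 (median 8.84) in BPN/3J females and 8.59 to 8.69 (median 8.64) in BPH/2J females and these overlapped between 8.67 and 8.69. The difference was -0.20 (SE 0.0587, adjusted p = 0.0381) and was lost in 10 of 12 fits that left out 1 array, with an adjusted p of up to 0.0788 (without BPN/3J females replicate 1). In males *Npr1* ranged from 8.38 to 8.61 in BPN/3J and from 8.28 to 8.46 in BPH/2J, with a difference of -0.11 (95% interval -0.22 to -0.0047, adjusted p = 0.169).

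*Npr2*, the receptor for C-type natriuretic peptide, was higher in BPH/2J males and was not called between strains in females. In males it was 9.51 to 9.72 (median 9.61) in BPN/3J and 9.82 to 9.93 (median 9.87) in BPH/2J, which did not overlap, and the difference was 0.27 (SE 0.0426, adjusted p = 0.000525). Females were at 9.92 to 10.25 in BPN/3J and 9.94 to 10.29 in BPH/2J, and the difference was -0.022 (95% interval -0.16 to 0.12). *Npr2* was the only member with a called strain-by-sex interaction, of -0.30 (SE 0.0761, adjusted p = 0.0455), where 1.76% of all probe sets were called (0.918% with a positive and 0.842% with a negative sign, and 0.360% by Bonferroni). That call was near the threshold, and 19 of 24 fits that left out 1 array lost it, with an adjusted p of up to 0.0865 (without BPH/2J females replicate 2). It was also lost without arrays 2 and 5 of the BPN/3J females.

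*Npr3* encodes the clearance receptor, which takes up natriuretic peptides and has no cyclase. It was 8.98 to 9.25 (median 9.12) in BPN/3J males and 9.24 to 9.48 (median 9.38) in BPH/2J males, with 1 array of each strain in the shared range. The difference was 0.25 (SE 0.0512, 1.19-fold, adjusted p = 0.0038). Females were at 8.94 to 9.21 in BPN/3J and 8.97 to 9.47 in BPH/2J, with a difference of 0.14 (95% interval -0.022 to 0.31, adjusted p = 0.27). The interaction was -0.11 (95% interval -0.30 to 0.084).

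**Figure D2:**
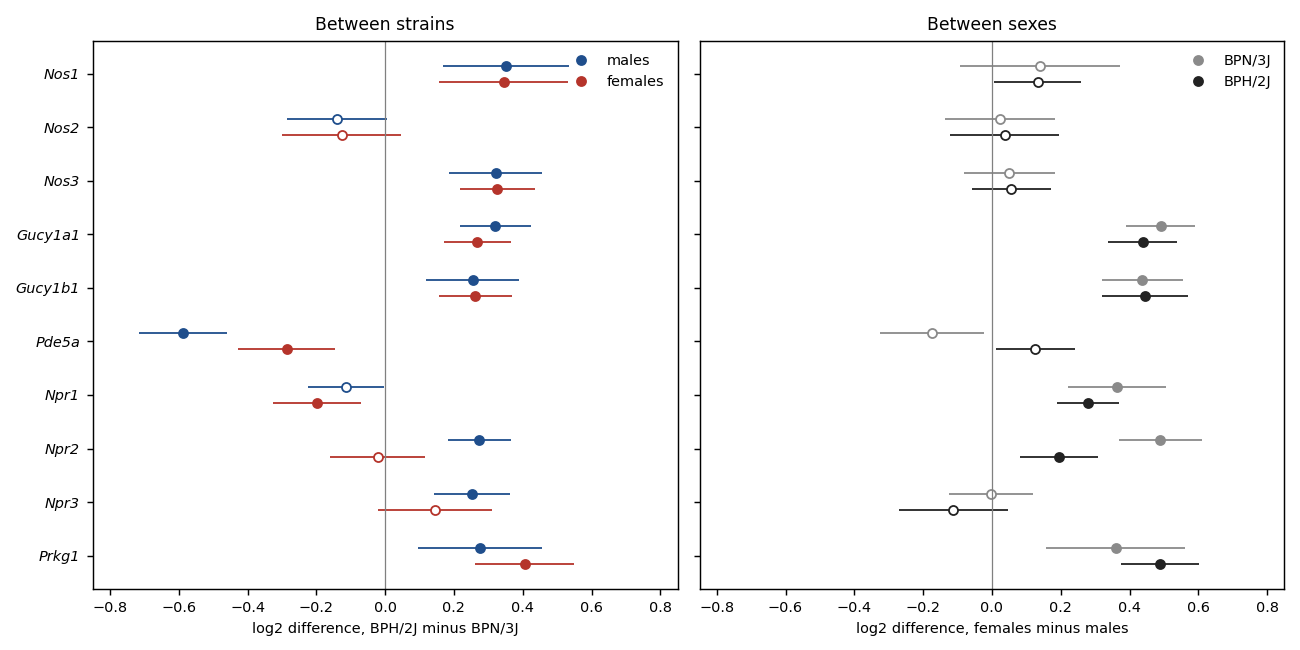
Log2 differences of the 10 genes between strains within each sex (left, BPH/2J minus BPN/3J) and between sexes within each strain (right, females minus males). Points are limma estimates with 95% intervals, filled where the Benjamini-Hochberg adjusted p was under 0.05. *Pde5a* in males lies farthest from 0 on the left (-0.59), and 5 genes are called in both strains on the right, all higher in females.

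Between the sexes, the same 5 genes were higher in females in both strains: *Gucy1a1*, *Gucy1b1*, *Npr1*, *Npr2* and *Prkg1*. They were 5 of 10 in BPN/3J, where 29.2% of all probe sets were called (14.4% higher and 14.8% lower in females), and 5 of 10 in BPH/2J, where 28.9% were called (15.6% higher and 13.4% lower). A sex difference in the same direction was called in both strains for 19.6% of all probe sets. The sexes did not overlap for 4 of the 10 genes in BPN/3J (17.6% of all probe sets) and for 5 in BPH/2J (18.2%). These comparisons use the same 4 groups as the strain comparisons, so each group enters 2 of them. *Gucy1a1* was higher in females by 0.49 in BPN/3J (SE 0.0465, 1.41-fold, adjusted p = 4.22e-06) and by 0.44 in BPH/2J (SE 0.0462, adjusted p = 1.05e-05), and it passed the Bonferroni threshold in both strains. *Gucy1b1* was higher by 0.44 (SE 0.0547) and 0.45 (SE 0.0575). *Prkg1* was higher by 0.36 in BPN/3J (SE 0.0933, adjusted p = 0.0106) and by 0.49 in BPH/2J (SE 0.0526, 1.40-fold, adjusted p = 1.28e-05), the latter past the Bonferroni threshold. *Npr2* passed it in BPN/3J, and 4.74% of all probe sets passed it in BPN/3J and 4.72% in BPH/2J.

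Both cyclase-linked natriuretic peptide receptors were also higher in females. *Npr1* was higher by 0.36 in BPN/3J (SE 0.0654, adjusted p = 0.000901) and by 0.28 in BPH/2J (SE 0.0419, adjusted p = 0.000209). *Npr2* was higher by 0.49 in BPN/3J (SE 0.0559, adjusted p = 2.21e-05) and by 0.19 in BPH/2J (SE 0.0523, adjusted p = 0.013). *Npr3*, the receptor without a cyclase, was not called, with differences of -0.0032 (95% interval -0.12 to 0.12) and -0.11 (-0.27 to 0.046). None of the 3 synthases was called between the sexes. The differences of *Nos3* were 0.051 (-0.081 to 0.18) and 0.056 (-0.059 to 0.17). *Pde5a* was at -0.18 in BPN/3J (adjusted p = 0.0795) and 0.13 in BPH/2J (adjusted p = 0.0959), and in BPN/3J it was called lower in females when the arrays were shifted to a common median or quantile normalised, and in 3 other settings.

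The orders of the 4 group means differed between the genes. *Gucy1a1*, *Gucy1b1* and *Prkg1* went from BPN/3J males through BPH/2J males and BPN/3J females to BPH/2J females, over 0.76, 0.70 and 0.76 between the lowest and highest mean. *Nos1* and *Nos3* went from the 2 BPN/3J groups to the 2 BPH/2J groups, over 0.48 and 0.38, and the sexes of a strain overlapped and were not called for either gene. *Npr1* was lowest in BPH/2J males and highest in BPN/3J females, over 0.48.

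Smooth muscle and pericyte markers moved with several of these genes. Of 9 listed (*Acta2*, *Myh11*, *Tagln*, *Rgs5*, *Cnn1*, *Pdgfrb*, *Notch3*, *Lmod1* and *Cspg4*), BPH/2J males had 6 higher and 1 lower, and BPH/2J females had 7 higher and 1 lower. Between strains these calls were 77.8% of the list in males and 88.9% in females, beside 15.2% and 14.5% of all probe sets. In females against males, 7 were higher in each strain (77.8%) and none was called lower. Of all probe sets, 14.4% were higher in females of BPN/3J and 15.6% in females of BPH/2J. *Rgs5*, a pericyte marker, was higher in BPH/2J by 0.46 in males (SE 0.0506) and 0.51 in females (SE 0.0362), and *Acta2*, smooth muscle actin, by 0.44 (SE 0.0713) and 0.41 (SE 0.062). *Lmod1*, a smooth muscle leiomodin, was lower in BPH/2J, with differences of -0.46 and -0.73. In BPN/3J males the mean of the 9 genes lay between 8.29 and 8.52, and in BPH/2J males between 8.60 and 8.69. In BPN/3J females it lay between 8.58 and 8.84, and in BPH/2J females between 8.87 and 8.99. These are the same order of group medians as for *Gucy1a1*, *Gucy1b1* and *Prkg1*. The means of podocyte, endothelial, adrenal cortex and adrenal medulla markers had this order of medians too. The podocyte mean also did not overlap between strains. Its highest values in BPN/3J were 8.06 (males) and 8.53 (females), and its lowest in BPH/2J were 8.25 and 8.65. The smooth muscle and pericyte mean did not overlap between strains within a sex, nor between sexes within a strain. The podocyte mean did not overlap between sexes either. Its highest values in males were 8.06 (BPN/3J) and 8.32 (BPH/2J), and its lowest in females 8.33 and 8.65. In a fit that holds the smooth muscle and pericyte mean beside strain or sex, those terms cannot be told apart.

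With that mean as a covariate, a setting added after seeing the data, *Pde5a* was still called in males (-0.61, adjusted p = 0.0113) and in females (-0.45, adjusted p = 0.0493). *Nos1* was called in males (0.62, adjusted p = 0.0317). The other calls between strains were lost, and *Prkg1* in males was at -0.0098 (adjusted p = 0.985). *Gucy1a1* was at 0.26 (adjusted p = 0.18) in males and 0.13 (adjusted p = 0.488) in females. Of the 5 sex calls, *Gucy1a1* (0.31, adjusted p = 0.0176) and *Npr2* (0.43, adjusted p = 0.0337) were left in BPN/3J, where *Prkg1* was at -0.017 (adjusted p = 0.965). In BPH/2J all 5 sex calls were lost, with *Gucy1a1* at 0.50 (adjusted p = 0.44) and *Prkg1* at 0.60 (adjusted p = 0.4). These 2 estimates were not smaller than the 0.44 and 0.49 without the covariate. Podocyte markers also moved with the group. Of 5 measured, 4 were higher in BPH/2J males and 5 in BPH/2J females, and all 5 were higher in females of both strains. Of 9 endothelial markers, *Pecam1* alone was called between strains, higher in BPH/2J by 0.30 in males and 0.25 in females. Of 8 macrophage markers, none was called higher in BPH/2J, and 3 were lower in males and 2 in females. The called shares in males and females were 80.0% and 100% (podocyte), 11.1% and 11.1% (endothelial) and 37.5% and 25.0% (macrophage). Those of all probe sets were 15.2% and 14.5%. Markers also moved with sex. In each strain 5 of 9 endothelial markers (*Pecam1*, *Cdh5*, *Emcn*, *Tek* and *Ehd3*) and 5 of 7 kidney markers were higher in females. The kidney marker *Slc34a1* was called lower in females of BPH/2J. In BPN/3J no kidney marker was called lower, though 1 lay lower in females without overlap. Of all probe sets, 14.4% were higher and 14.8% lower in BPN/3J females, and 15.6% higher and 13.4% lower in BPH/2J females. The 8 adrenal cortex markers had a median difference, females minus males, of 1.37 in BPN/3J and 1.74 in BPH/2J. It was positive for 7 of the 8 in each strain. Only 1 was called in BPN/3J (lower in females), and 1 higher and 1 lower in BPH/2J. With hepatocyte and adrenal cortex covariates, 25 of the 26 called differences of the member genes were the same. Of the macrophage markers 1 was higher in females of BPN/3J and 4 in females of BPH/2J, and of 9 fat markers 3 were lower in BPN/3J females and 6 higher in BPH/2J females. The mean of 9 fat markers lay between 7.77 and 8.52 in BPN/3J females, without overlap with BPH/2J females between 8.61 and 9.48, and with it as a covariate 3 of the 7 calls in females were left (*Nos1*, *Nos3* and *Prkg1*). The part of other cell types in these results was not tested further.

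**Figure D3:**
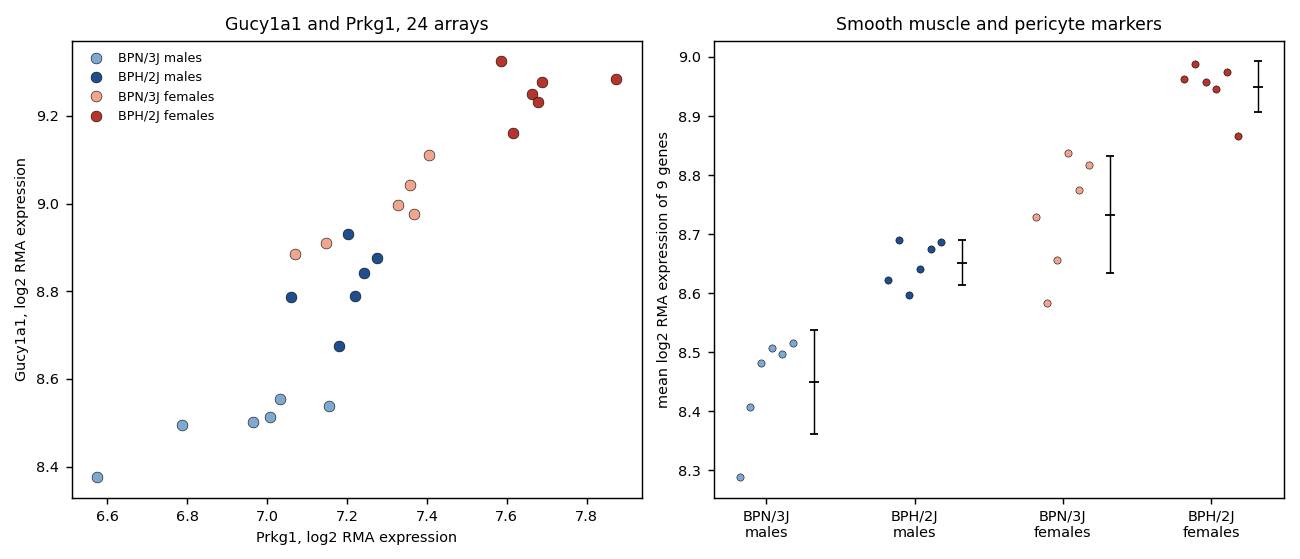
Left, *Gucy1a1* against *Prkg1*, both in log2 RMA expression, on 24 arrays coloured by group. Right, the mean log2 expression of the 9 smooth muscle and pericyte markers on each array, with mean ± SD per group. The 4 groups stand in the same order of medians as for both genes, as they do for several other marker lists.

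Within groups, only 1 pair of the 10 genes varied together beyond the threshold. After each group's mean was taken off, 45 pairs were compared over 24 arrays, and 36 had a positive Pearson's r (median 0.16). *Gucy1a1* and *Prkg1* had r = 0.63 (permutation p = 0.00094, adjusted p = 0.0423 over the 45 pairs) and Spearman's rho = 0.64 (permutation p = 0.00067, adjusted p = 0.0302). Permutations, 100000 in all, were made within groups. Without the 2 arrays farthest from the median r was 0.59, and within single groups it was 0.20 to 0.92, positive in 4 of 4. *Gucy1a1* and *Npr1* had r = 0.63 (permutation p = 0.00318) with an adjusted p of 0.0715. The 2 subunits of the cyclase, *Gucy1a1* and *Gucy1b1*, had r = 0.16 (permutation p = 0.515), and within groups it ran from -0.68 to 0.78.

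The genes whose group-centred values were most like each member were found over 24 arrays among 18781 other genes, as a description. For *Prkg1* they were *Rad21*, *Sav1* and *Rbmx2* (r = 0.83, 0.83 and 0.82), and for *Gucy1a1* *Serpinb10*, *Sav1* and *Scrn1* (0.78, 0.77 and 0.77). *Sav1* stood in both lists. For *Pde5a* they were *Mxra7*, *Filip1* and *Vmn1r26* (0.83, 0.81 and 0.80). For *Nos3* they were *Vcan*, *Polr2h* and *Pygm* (0.74, 0.73 and 0.71), for *Nos1* *Ezr*, *Hoxc13* and *Polr3a* (0.78, 0.76 and 0.75), and for *Gucy1b1* *Tubb5*, *Asxl3* and *Mrtfa* (0.77, 0.75 and 0.73). *Sav1* differed between strains by -0.14 in males and 0.013 in females, while *Mxra7* was lower in BPH/2J (-0.48 and -0.55), as *Pde5a* was.

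Of 60 other genes of the pathway, in 5 lists, 57 had a probe set of their own and are described here. In males, 14 of the 57 were called between strains (24.6%), with 7 higher and 7 lower in BPH/2J, beside 15.2% of all probe sets. In females, 17 were called (29.8%), with 7 higher and 10 lower, beside 14.5%. The median difference over the 57 was -0.0047 in males and 0.019 in females, and the median absolute difference 0.085 and 0.099. Between sexes, 31 (54.4%) were called in BPN/3J, 22 of them higher in females, beside 29.2% of all probe sets. In BPH/2J 32 (56.1%) were called, 21 of them higher, beside 28.9%. The strain calls were shared in direction by both sexes for 10 of the 57 genes, where the share of all probe sets was 8.09%. *Qdpr*, *Mme*, *Pde1c*, *Pde3a* and *Kcnma1* were higher and *Corin*, *Furin*, *Guca2b*, *Pde6a* and *Pde6d* were lower in BPH/2J.

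The natriuretic peptides and their processing enzymes made up 9 of the 57, with 5 called in each sex (55.6%). The shares of all probe sets were 15.2% in males and 14.5% in females. *Nppa*, which encodes atrial natriuretic peptide, was 5.76 to 6.32 over males of both strains, with a strain difference of -0.026 (95% interval -0.19 to 0.13) in males and 0.086 (-0.11 to 0.28) in females, and neither was called. *Nppb*, B-type natriuretic peptide, was lower in BPH/2J males (-0.29, SE 0.0916, adjusted p = 0.0469) and at -0.053 in females. *Nppc*, C-type natriuretic peptide, was at -0.095 and -0.079 and was not called. The values of *Nppa*, *Nppb* and *Nppc* were low, below the array medians of 6.89 to 6.97 on every array. Both proteases that cut natriuretic propeptides were lower in BPH/2J. *Corin* was 7.78 to 8.14 (median 7.91) in BPN/3J males and 7.16 to 7.59 (median 7.47) in BPH/2J males, a difference of -0.51 (SE 0.081, 1.42-fold lower, adjusted p = 0.000639). Females had 8.07 to 8.25 in BPN/3J and 7.68 to 7.86 in BPH/2J, a difference of -0.39 (SE 0.0477, adjusted p = 8.47e-05). The strains did not overlap in either sex. *Furin* was at -0.19 (SE 0.0401) and -0.18 (SE 0.0439).

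*Mme* encodes neprilysin, the peptidase that degrades natriuretic peptides, and it was the most changed of the 9 in males. It was 10.48 to 10.74 (median 10.60) in BPN/3J males and 11.60 to 11.75 (median 11.65) in BPH/2J males, a 2.08-fold higher level (difference 1.06, SE 0.0475, adjusted p = 3.17e-09, past the Bonferroni threshold). In females it was 11.77 to 12.10 (median 12.00) in BPN/3J and 12.36 to 12.57 (median 12.48) in BPH/2J, a 1.42-fold higher level (0.51, SE 0.0547, adjusted p = 2.75e-05, past the Bonferroni threshold). No 2 of the 4 groups overlapped. The interaction was called (-0.55, SE 0.0712, adjusted p = 4.36e-05) and passed the Bonferroni threshold.

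The other genes listed with the cGMP phosphodiesterases did not follow *Pde5a* as a group. Of 15, BPH/2J males had 2 higher and 2 lower, and BPH/2J females had 2 higher and 4 lower. *Pde3a*, a phosphodiesterase that cyclic GMP inhibits, lay between 7.65 and 7.82 in BPN/3J males, with BPH/2J males between 8.06 and 8.30. BPN/3J females lay between 7.95 and 8.19, with BPH/2J females between 8.60 and 8.70. It was higher in BPH/2J by 0.43 in males (SE 0.0497, adjusted p = 3.73e-05) and 0.58 in females (SE 0.0427, 1.49-fold, adjusted p = 7.18e-07), past the Bonferroni threshold in both. *Pde1c* was higher by 0.19 and 0.29. Of 6 *Pde6* genes, *Pde6a* and *Pde6d* were lower in both sexes and *Pde6g* in females, and the others were not called. Among the *Pde6* genes, *Pde6d*, *Pde6g* and *Pde6h* do not encode catalytic subunits. In BPN/3J males *Pde6a* ranged from 8.59 to 9.13 (median 8.77), with BPH/2J males between 7.52 and 8.05 (median 7.83), a difference of -1.01 (SE 0.104, 2.01-fold lower), past the Bonferroni threshold. In females it ranged from 6.53 to 7.11 (median 6.79) in BPN/3J, with BPH/2J between 6.40 and 6.61 (median 6.47), a difference of -0.31 (SE 0.0869). Its interaction was 0.70 (SE 0.141, adjusted p = 0.00665). *Pde6d* differed by -0.41 and -0.54 (SE 0.0489 and 0.0373), past the Bonferroni threshold and with no overlap in either sex.

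Among 11 effectors and exporters of cyclic GMP, 2 were called between strains in males (18.2%) and 1 in females (9.09%), shares near the 15.2% and 14.5% of all probe sets. *Kcnma1*, the large-conductance potassium channel that protein kinase G opens in smooth muscle, was called in both. It was 6.79 to 7.29 (median 6.99) in BPN/3J males and 7.16 to 7.31 (median 7.27) in BPH/2J males, a difference of 0.25 (SE 0.0668, adjusted p = 0.0209). In females it was 5.85 to 6.61 (median 6.07) in BPN/3J and 6.80 to 6.92 (median 6.91) in BPH/2J, which did not overlap, a difference of 0.77 (SE 0.108, 1.70-fold, adjusted p = 0.000262). The interaction was 0.52 (SE 0.131, adjusted p = 0.0402). Of 7 other guanylyl cyclases, 1 was called in males (14.3%, near the share of all probe sets) and 0 in females. It was *Gucy1a2*, the alpha 2 subunit of the soluble enzyme, higher in BPH/2J males by 0.14 (SE 0.038, adjusted p = 0.0221). In females *Gucy1a2* was at 0.086 (adjusted p = 0.497). *Guca2b*, uroguanylin, which acts on a membrane cyclase, was lower in BPH/2J, with differences of -0.14 in males (SE 0.037, adjusted p = 0.0184) and -0.30 in females (SE 0.0436, adjusted p = 0.00038). Of 15 genes that supply nitric oxide synthases with substrate or cofactor or bind them, 2 were called in males (13.3%) and 5 in females (33.3%). The shares of all probe sets were 15.2% and 14.5%. *Qdpr*, which regenerates the cofactor tetrahydrobiopterin, was called in both, higher by 0.35 (SE 0.0381, adjusted p = 2.42e-05, past the Bonferroni threshold) in males and 0.25 (SE 0.0493, adjusted p = 0.00326) in females.

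**Figure D4:**
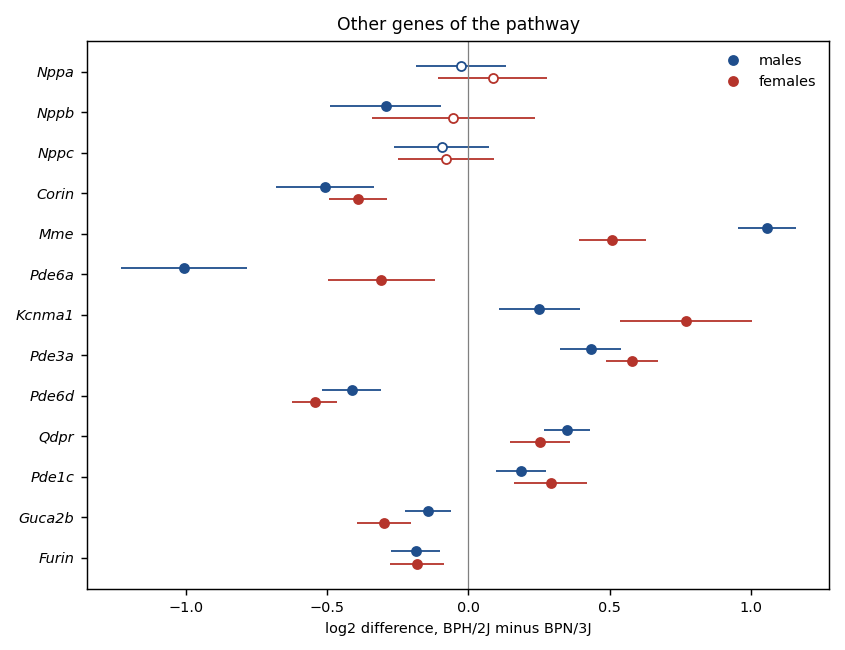
Log2 differences between strains (BPH/2J minus BPN/3J) for 13 named genes of the wider pathway, in males and females. Points are limma estimates with 95% intervals, filled where the Benjamini-Hochberg adjusted p was under 0.05. *Mme* (1.06 in males) and *Pde6a* (-1.01 in males) lie farthest from 0, and *Nppa* and *Nppc* are called in neither sex.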

How the data were processed

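Kidney RNA of 24 mice was hybridised to Mouse Gene 1.0 ST arrays (Affymetrix). The authors normalised the arrays by RMA (version not given in the sources used here), and the deposited values are log2 expression, from 2.12 to 14.55, with array medians of 6.89 to 6.97. They were used as deposited, with no filter or offset. The number of arrays limits the precision. Strain, sex and replicate number came from the labels. Symbols came from the array annotation, in which 73.3% of 28853 probe sets have 1 symbol. A gene was represented by its single-symbol probe set with the highest mean. Sequence differences between the strains under probes were not examined.

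Groups were compared with limma 3.58.1 in R 4.3.3 (two-sided moderated tests). Strains were compared within sexes and sexes within strains on 12 arrays, and the interaction was fitted on 24. Benjamini-Hochberg adjustment was over all probe sets. The procedure was tested on simulated data. The 10 genes, the 5 pathway lists and the marker lists were chosen with earlier results of these data known. Named pathway genes were *Nppa*, *Nppb*, *Nppc*, *Corin* and up to 12 genes called in the same direction in both sexes, with the largest mean differences. Like genes were the 3 with the highest r for each member called in both sexes. Alternatives were other tests, thresholds, scalings, filters, covariates and left-out arrays. Deviations of same-numbered arrays of different groups had r from -0.57 to 0.44, over 0.1 for 10 of 24 pairs. The best partner had the same number in 6 of the 24. In the strain comparison of females this held for arrays 1, 2, 4 and 6 (r = 0.34, 0.23, 0.26 and 0.34). This check cannot settle whether the numbers pair the mice, and the main fits did not use them as pairs. Promoter windows and coordinates are RefSeq's (GRCm38.p6). Correlations used Python 3.11.15 and numpy 2.4.6, figures matplotlib 3.10.9. Blood pressure and qPCR records were not analysed here.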

Additional observations from a re-analysis of the deposited data

Results flagged for a closer look

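Single arrays stood apart from the other 5 of their group by Dixon's test in 9 of the 92 gene and group combinations looked at. The test was made at the 95% level, at which chance alone flags about 1 in 20 such groups. Among the 10 genes, *Nos2* was 6.10 on array 5 of the BPN/3J males (the next was 5.94), *Gucy1a1* was 8.38 on array 1 of the BPN/3J males (next 8.49), *Gucy1b1* was 7.81 on array 6 of the BPH/2J females (next 7.96) and *Prkg1* was 7.87 on array 4 of the BPH/2J females (next 7.69). Among the other pathway genes, *Nppa* was 6.32 on array 6 of the BPN/3J males and 5.76 on array 5 of the BPH/2J males. *Kcnma1* was 6.80 on array 4 of the BPH/2J females, *Pde6d* was 11.46 on array 5 of the BPN/3J females, and *Furin* was 11.03 on array 2 of the BPN/3J males.

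The strain effect differed between the sexes in the interaction test for 1 of the 10 genes and for 3 of the named pathway genes. *Npr2* had an interaction of -0.30 (females minus males, adjusted p = 0.0455), *Mme* of -0.55 (adjusted p = 4.36e-05), *Pde6a* of 0.70 (adjusted p = 0.00665) and *Kcnma1* of 0.52 (adjusted p = 0.0402). *Mme* and *Pde6a* differed more between strains in males, and *Kcnma1* more in females.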

How the results depend on the processing

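The 26 called differences of the 10 genes were recomputed in 401 alternatives. In 315 the direction and the call were the same, in 84 the call was lost and in 2 the direction turned, for *Prkg1* in males (-0.0098) and between BPN/3J sexes (-0.017), both with the smooth muscle and pericyte mean as covariate, an alternative chosen after seeing the data.

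Counts are given in the order males, females, interaction, sexes in BPN/3J, sexes in BPH/2J. Shares of all probe sets are given only for the main fits, so these counts show only how the calls depend on the setting. At the Bonferroni threshold, the 10 genes had 1, 0, 0, 2 and 2 calls in limma and the 57 other genes 5, 3, 1, 6 and 7, and the members had 7 unadjusted p-values under 0.05 in females and 2 in the interaction. With a 1.5-fold change required in addition, the counts were 1, 0, 0, 0 and 0, and 2, 1, 1, 7 and 5. With the smooth muscle covariate they were 2, 1, 0, 2 and 0, and 5, 8, 6, 8 and 1. With the fat covariate, 3 of the 10 and 5 of the 57 were called in females, and 0 and 3 in the interaction. The *Npr2* interaction was also lost (0 calls) with arrays shifted to a common median, with hepatocyte and adrenal cortex covariates and without BPN/3J females 2 and 5. The common median moved no array by more than 0.044.

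Leaving out 1 array at a time gave 7 to 8 calls in males, 6 to 7 in females, 0 to 2 in the interaction, and 5 to 6 between sexes in each strain. Without BPN/3J females replicate 4, *Pde5a* joined *Npr2* in the interaction. For the 57 genes the counts were 12 to 15, 15 to 17, 4 to 7, 23 to 29 and 29 to 33. With the replicate number as a block, which is not established as a pairing, there were 6 calls in males (without *Gucy1b1* and *Prkg1*), 6 in females (without *Npr1*), 1, 6 and 5. The two-sided t-test with unequal variances, with Benjamini-Hochberg adjustment, gave 6 in males (without *Nos1* and *Prkg1*) and 6 in females (without *Npr1*). Neither it nor the fit to all 24 arrays was run for the interaction. *Npr1* in females was also lost with quantile normalisation. No member had another probe set to try.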
